A study of Homo sapiens with 6 samples.

Results

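The proteasome genes of KGN cells, an established line grown from a human ovarian granulosa cell tumour, were examined after knockdown of OGT, the enzyme that adds O-linked N-acetylglucosamine to nuclear and cytosolic proteins. Members were all genes of the deposited expression table whose symbol starts with PSMA, PSMB, PSMC, PSMD, PSME, PSMF or PSMG followed by a number, which gave 50 of 20036 genes. The wild-type cells received siOGT1 or siOGT2, a pair of small interfering RNAs (siRNAs) against OGT mRNA, or the control siRNA siNC, all with a Lipofectamine reagent. They were harvested 48 h later, and each of the 3 groups had 2 bulk RNA-seq libraries. All groups are 1 cell line, and nothing in the labels says that the libraries of a group came from separate cultures, so the p-values measure only the spread between these libraries, which may be technical. In bulk RNA, fewer cells that express a gene and less RNA per cell cannot be told apart.

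The proteasome degrades proteins tagged with ubiquitin. Its barrel, the 20S core, has outer alpha rings (PSMA genes) that gate entry and inner beta rings (PSMB genes) that hold the proteolytic sites. A 19S cap with a ring of ATPases (PSMC genes) and a lid and scaffold (PSMD genes) binds, unfolds and feeds in tagged proteins. Interferon signalling induces PSMB8, PSMB9 and PSMB10, whose proteins replace the constitutive catalytic subunits PSMB5, PSMB6 and PSMB7 in newly built cores. The result is the immunoproteasome, known for producing peptides that fit major histocompatibility complex (MHC) class I molecules. PSME1 and PSME2, also induced by interferon, form an alternative cap that needs no ubiquitin.

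The 5 inducible genes PSMB8, PSMB9, PSMB10, PSME1 and PSME2 were set against the 45 other members. The others were 7 alpha subunits, 7 constitutive beta subunits, 6 ATPases and 11 non-ATPase subunits of the 19S cap, 7 assembly chaperones, 3 other activators or regulators, 2 tissue-restricted subunits, and 2 genes named only for binding a subunit. Levels are given in FPKM, fragment counts divided by gene length and by library depth, so that levels of different genes are per length. Of the 50 members, 44 had a mean of at least 1 FPKM and were tested with the 10547 genes that passed this filter, namely all 5 inducible and 39 of the 45 other members. Differences are on the log2(FPKM + 1) scale, which understates the change of low genes. A gene is said to have risen or fallen where limma's test gave a Benjamini-Hochberg adjusted p under 0.05 over all tested genes.

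Library totals, recovered from the FPKM values as whole reads, ran from 16756647 to 21416486, and the proteasome genes held 0.553 to 0.567% of the reads of the listed genes in every library. OGT itself averaged 13.3 ± 0.658 FPKM with siOGT1, 14.5 ± 0.268 with siOGT2 and 22.9 ± 0.659 with siNC (SD, n = 2 each). The log2 differences were -0.74 for siOGT1 and -0.63 for siOGT2, so an appreciable part of the OGT mRNA was left. Of 12 granulosa cell markers, 7 reached a mean of 1 FPKM and FSHR, the receptor for follicle-stimulating hormone, was at 0 in all 6 libraries. Of 9 leukocyte and 5 endothelial markers, none reached 1 FPKM.

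The stretch around the start site is shown for the 5 inducible genes, because interferon acts on them through factors that bind there. Each sequence runs 5′ to 3′ on the gene's strand, as the 300 bases that end 50 bases after the start site (RefSeq, GRCh38.p14). Capitals mark matches on either strand to GAAA, any 2 bases and GAAA again, the core of the interferon-stimulated response element that interferon regulatory factors recognise. PSMB8 and PSMB9 lie in the MHC region at chr6:32844630-32844929 (minus strand) and chr6:32853942-32854241 (plus strand). PSMB10 is at chr16:67936801-67937100 (minus strand). PSME1 at chr14:24135944-24136243 (plus strand) and PSME2 at chr14:24146561-24146860 (minus strand) are close neighbours.
PSMB8: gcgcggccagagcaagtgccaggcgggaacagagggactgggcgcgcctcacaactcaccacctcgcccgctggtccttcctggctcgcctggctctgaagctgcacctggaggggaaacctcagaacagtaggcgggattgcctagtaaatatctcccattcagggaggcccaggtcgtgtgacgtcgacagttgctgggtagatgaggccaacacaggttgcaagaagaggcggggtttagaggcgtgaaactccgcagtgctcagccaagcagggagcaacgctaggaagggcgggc
PSMB9: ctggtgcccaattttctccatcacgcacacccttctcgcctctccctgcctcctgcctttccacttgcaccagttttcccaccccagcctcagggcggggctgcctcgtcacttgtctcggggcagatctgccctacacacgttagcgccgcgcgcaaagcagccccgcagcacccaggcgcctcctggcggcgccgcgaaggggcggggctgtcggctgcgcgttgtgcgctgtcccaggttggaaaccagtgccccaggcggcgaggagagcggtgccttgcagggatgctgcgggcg
PSMB10: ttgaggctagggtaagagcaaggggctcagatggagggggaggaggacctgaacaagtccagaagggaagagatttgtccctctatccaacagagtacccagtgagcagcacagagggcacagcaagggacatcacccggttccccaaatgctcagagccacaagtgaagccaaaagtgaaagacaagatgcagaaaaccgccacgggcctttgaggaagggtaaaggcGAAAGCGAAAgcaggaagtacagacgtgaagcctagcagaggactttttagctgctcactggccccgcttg
PSME1: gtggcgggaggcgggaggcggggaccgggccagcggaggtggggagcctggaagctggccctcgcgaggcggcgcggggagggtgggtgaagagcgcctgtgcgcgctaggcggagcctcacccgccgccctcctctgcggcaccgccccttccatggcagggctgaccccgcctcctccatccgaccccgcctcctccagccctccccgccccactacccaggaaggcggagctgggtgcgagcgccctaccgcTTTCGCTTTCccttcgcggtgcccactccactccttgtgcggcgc
PSME2: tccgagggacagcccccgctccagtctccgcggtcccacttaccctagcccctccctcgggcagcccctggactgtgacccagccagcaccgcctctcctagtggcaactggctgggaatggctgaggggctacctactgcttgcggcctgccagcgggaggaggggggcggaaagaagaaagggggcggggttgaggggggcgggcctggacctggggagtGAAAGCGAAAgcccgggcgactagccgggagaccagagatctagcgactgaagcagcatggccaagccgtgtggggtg

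The core motif was found in 3 of the 5 inducible genes, against 3 of 39 other members with a promoter in the table (PSMA4, PSMB4 and PSMG4) and 3.57% of all 35116 promoters. In PSMB10 it spans bases -21 to -12 from the start site and in PSME2 bases -28 to -19, with the same letters GAAAGCGAAA. In PSME1 it stands on the opposite strand, as TTTCGCTTTC at bases 6 to 15 after the start site. PSMG4, which is not an inducible gene, has GAAAGCGAAA too, at bases -33 to -24. PSMG4 was under the filter and not tested. It had 0.725 and 0.870 FPKM with siOGT1, 0.943 and 0.923 with siOGT2, and 0.734 and 0.716 with siNC. The letters TTCNNNGAA, a motif of STAT factors, were in none of the 5 inducible promoters, in 5 of the 39 others and in 7.66% of all promoters. TGACNNNGC, a core recognised by NRF-type factors that drive constitutive proteasome genes, was in 3 of 5 inducible promoters (PSMB9, PSME1 and PSME2), 10 of 39 others and 13.3% of all. These are matches of letters in a 300-base window, not binding sites.

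The inducible genes were lower after OGT knockdown, and more so with siOGT2. With siOGT1, 4 of 5 fell (PSMB9, PSMB10, PSME2 and PSME1), where 8.1% of all tested genes fell, and the median log2 difference of the 5 was -0.36, against 0.03 for all tested genes. With siOGT2, all 5 fell, where 13.4% of all tested genes did, with a median of -0.56, against 0.05 for all tested genes. The comparisons share the siNC libraries. PSMB9, PSMB10, PSME1 and PSME2 fell with each siRNA, as did 5.11% of all tested genes.

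PSMB9, which replaces the caspase-like subunit PSMB6, differed most. Its level was 14.3 and 14.0 FPKM with siOGT1, 12.2 and 10.3 FPKM with siOGT2, and 23.0 and 19.6 FPKM with siNC. Every library of either OGT siRNA was below both siNC libraries, and the siOGT2 libraries were below the siOGT1 libraries. The log2 difference was -0.56 ± 0.082 (SE) for siOGT1 (limma adjusted p = 0.00167) and -0.87 ± 0.082 for siOGT2 (limma adjusted p = 7.12e-05).

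PSMB10, which replaces the trypsin-like subunit PSMB7, was the least abundant of the inducible genes. Its level was 2.74 and 2.61 FPKM with siOGT1, 2.58 and 2.35 FPKM with siOGT2, and 3.97 and 4.22 FPKM with siNC, resting on 64 to 138 reads per library. All 4 knockdown libraries were below the siNC libraries. The log2 difference was -0.47 ± 0.062 for siOGT1 (limma adjusted p = 0.000847) and -0.56 ± 0.062 for siOGT2 (limma adjusted p = 0.000193). At this low level the added constant matters: the siOGT1 value was -0.61 with 0.1 added in place of 1 and -0.24 with 5 added. PSMB10 also shares exons with another gene, described with the low members.

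PSMB8, which replaces the chymotrypsin-like subunit PSMB5, moved least. It had 47.5 and 48.2 FPKM with siOGT1, 43.7 and 41.6 FPKM with siOGT2, and 55.60 and 49.96 FPKM with siNC. The groups did not overlap, but the siOGT1 libraries were only a little below the lower siNC library. The fall with siOGT2 passed the test (log2 difference -0.30 ± 0.048, limma adjusted p = 0.0016), while siOGT1 gave -0.14 ± 0.048 (limma adjusted p = 0.0847). The siOGT1 value rested on siNC replicate 1: without that library it was -0.06 (limma adjusted p = 0.453), and without siNC replicate 2 it was -0.21 (limma adjusted p = 0.0242). Other genes' exons overlap 14.0% of the PSMB8 coding bases, and whether the counting used strand is not given.

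The alternative cap moved as a pair. PSME1 had 46.6 and 47.4 FPKM with siOGT1, 40.2 and 39.7 FPKM with siOGT2, and 56.8 and 55.3 FPKM with siNC. Its 3 groups were well apart, with little spread within each, and it gave the smallest p of any member against siNC: the log2 difference was -0.25 ± 0.031 for siOGT1 (limma adjusted p = 0.00064) and -0.48 ± 0.031 for siOGT2 (limma adjusted p = 5.45e-06). PSME2 had 27.5 and 26.7 FPKM with siOGT1, 22.9 and 23.1 FPKM with siOGT2, and 37.2 and 33.0 FPKM with siNC. Again no libraries of different groups overlapped, and the log2 difference was -0.36 ± 0.050 for siOGT1 (limma adjusted p = 0.00125) and -0.58 ± 0.050 for siOGT2 (limma adjusted p = 3.91e-05).

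**Figure D1:**
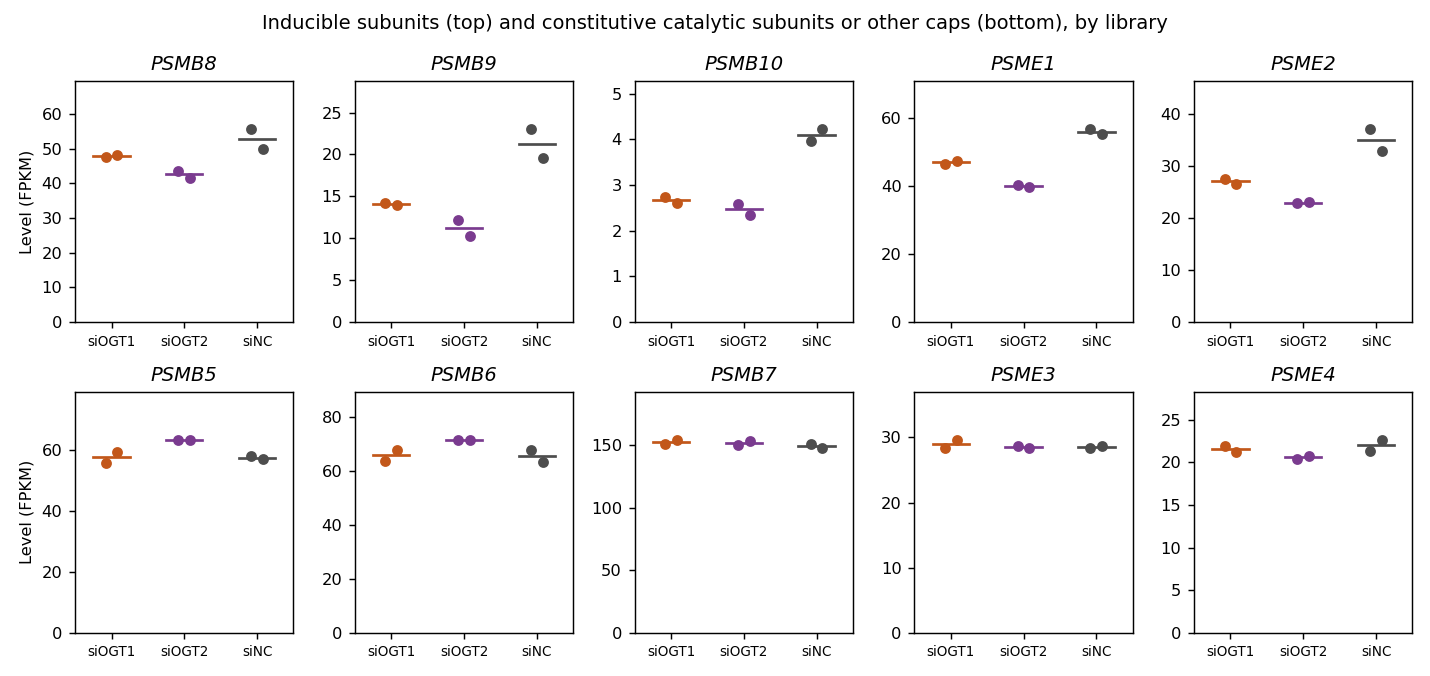
Level in FPKM (vertical axes, each starting at 0) of the 5 inducible genes (top) and of PSMB5, PSMB6, PSMB7, PSME3 and PSME4 (bottom) in each library, with siOGT1, siOGT2 and siNC from left to right. Points are libraries and bars are means of 2. In the top row all 4 knockdown libraries lie below both siNC libraries, while in the bottom row PSMB7 and PSME3 overlap between all groups. The share of all genes that separate in this way was not counted.

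Genes that interferon signalling uses to drive the inducible subunits were lower too. Of 16 genes of interferon-driven transcription and the class I peptide route, 10 fell with siOGT1 and 15 with siOGT2, where 8.1% and 13.4% of all tested genes fell. None of the 16 rose. Unadjusted p-values under 0.05, all for lower levels, numbered 13 with siOGT1 and 16 with siOGT2. The list had median log2 differences of -0.20 for siOGT1 and -0.40 for siOGT2, against 0.03 and 0.05 for all tested genes. STAT2, of type I interferon signalling, gave log2 differences of -0.33 for siOGT1 and -0.68 for siOGT2. IRF1, a direct activator of immunoproteasome genes, averaged 3.08 ± 0.0486 FPKM with siOGT1, 2.08 ± 0.00605 with siOGT2 and 4.71 ± 0.220 with siNC (SD, n = 2 each), log2 differences of -0.48 for siOGT1 and -0.89 for siOGT2. NLRC5, the transactivator of class I genes, gave -0.43 for siOGT1 and -0.71 for siOGT2. TAP1, the peptide transporter gene that shares a promoter region with PSMB9, gave -0.39 for siOGT1 and -0.72 for siOGT2. All these differences passed the test, and the part of these genes in the fall of the inducible subunits was not tested.

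Markers of other cell types were too low to be tested, and their values are given as a description. Summed over 9 leukocyte markers they were 1.26 to 1.39 FPKM with siOGT1, 1.21 to 1.44 with siOGT2 and 1.88 to 1.91 with siNC. LYZ was at 0 in every library, and PTPRC, the pan-leukocyte marker, had 0.0669 and 0.0393 FPKM with siOGT1, 0.0858 and 0.0657 with siOGT2, and 0.0450 and 0.0483 with siNC, with 3 of the 4 knockdown libraries above both siNC libraries. The 5 endothelial markers summed to 0.796 to 0.918 FPKM with siOGT1, 1.02 to 1.11 with siOGT2 and 1.19 to 1.34 with siNC. The part of such cells in the result was not tested.

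The constitutive counterparts did not fall with the inducible genes. PSMB7 had 151 and 154 FPKM with siOGT1, 150.1 and 154 FPKM with siOGT2, and 151 and 148 FPKM with siNC, and the groups overlapped. Neither difference passed the test, at 0.03 for each siRNA. PSMB6 had 63.9 and 68.0 FPKM with siOGT1, 71.4 and 71.6 FPKM with siOGT2, and 67.8 and 63.4 FPKM with siNC. It was above siNC in both siOGT2 libraries and overlapped it with siOGT1, and the siOGT2 difference of 0.12 passed the test (limma adjusted p = 0.0436) while the siOGT1 difference of 0.01 did not. PSMB5 had 55.8 and 59.3 FPKM with siOGT1, 63.3 and 63.2 FPKM with siOGT2, and 58.1 and 56.9 FPKM with siNC. The pattern was that of PSMB6, with 0.13 for siOGT2 (limma adjusted p = 0.0164) and 0.00 for siOGT1. Scaled by a trimmed mean of log ratios, neither rise passed the test. PSME3, a nuclear cap related to PSME1 and PSME2 that interferon does not induce, had 28.4 and 29.6 FPKM with siOGT1, 28.7 and 28.4 FPKM with siOGT2, and 28.4 and 28.7 FPKM with siNC, with no group apart from another.

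Within each library the inducible subunit was set against its counterpart as a share of their summed FPKM. The size of a share depends on the gene lengths that FPKM divides by. The values imply 3338 bases for PSMB9 against 1447 for PSMB6, and 3480 for PSMB8 against 1549 for PSMB5. In siNC replicate 1, PSMB9 had 1548 reads and PSMB6 had 1978. Within a pair, which group had the smaller share does not depend on these lengths. PSMB9 made up 18.3 and 17.0% of PSMB9 plus PSMB6 with siOGT1, 14.6 and 12.5% with siOGT2, and 25.3 and 23.6% with siNC. PSMB8 averaged 45.4% of PSMB8 plus PSMB5 with siOGT1, 40.3% with siOGT2 and 47.8% with siNC. As counted, PSMB10 averaged 1.72% of PSMB10 plus PSMB7 with siOGT1, 1.60% with siOGT2 and 2.67% with siNC, and this share is uncertain because PSMB10 shares exons with another gene and PSMB7 does not. Over all 3 catalytic pairs the inducible genes held 19.3 and 18.7% with siOGT1, 17.0 and 15.8% with siOGT2, and 23.0 and 21.6% with siNC. For the caps, PSME1 averaged 61.9%, 58.3% and 66.2% of PSME1 plus PSME3 with siOGT1, siOGT2 and siNC, and PSME2 averaged 48.3%, 44.6% and 55.1% of PSME2 plus PSME3. In all 5 pairs every knockdown library had a smaller share than both siNC libraries. Levels of other members, such as PSMA3, PSMA4, PSMB2 and PSMG2, also lay below siNC in every knockdown library. How many pairs among all genes separate in this way was not counted.

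The difference between the pair members was tested over libraries, the 4 with either OGT siRNA against the 2 with siNC. The log2 level of the inducible gene relative to its counterpart was lower by 0.78 for PSMB9, 0.54 for PSMB10, 0.48 for PSME2, 0.37 for PSME1 and 0.29 for PSMB8. Each gave p = 0.133 in a two-sided exact permutation test, the smallest that 15 arrangements of these libraries allow, so none can pass 0.05.

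**Figure D2:**
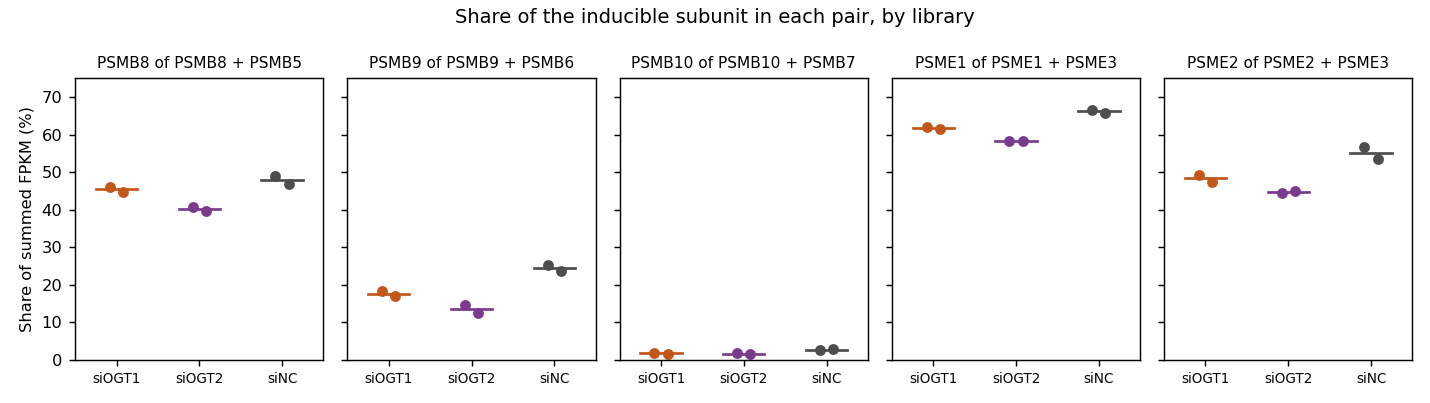
Share of the inducible gene in the summed FPKM of the pair (vertical axis, percent) by library, with siOGT1, siOGT2 and siNC from left to right; points are libraries and bars are means of 2. All 4 knockdown libraries are below the siNC libraries in each pair, and the siOGT2 mean is the lowest of the 3 means. How often other pairs of genes separate in this way was not counted.

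Among the 39 other tested members, differences went either way, and their range overlapped that of the inducible genes: PSMA1 with siOGT2 (-0.34) was beyond PSMB8 (-0.30). With siOGT1, limma called 0 higher, where 9.51% of all tested genes rose, although 5 had an unadjusted p under 0.05 and limma-voom on the recovered reads called 1, the ubiquitin receptor PSMD4. With siOGT1, 3 fell, near the 8.1% of all tested genes, and the median of the 39 was 0.01. With siOGT2, 8 rose and 6 fell, where 22.1% of all tested genes rose and 13.4% fell, and the median was 0.04. These shares are near those of all tested genes. Scaling by a trimmed mean of log ratios turned the siOGT2 split into 4 higher and 8 lower. The calls of PSMA1, PSMC3, PSMD2 and PSMD8 with siOGT2 passed whichever library was left out, and each other call was lost without at least 1 library. For siOGT1, the 3 falls became 1 without siNC replicate 1 or siOGT1 replicate 2, and 0 without siNC replicate 2 or siOGT1 replicate 1. For siOGT2, 5 rose and 1 fell without siNC replicate 1 or without siOGT2 replicate 1, 4 rose and 3 fell without siNC replicate 2, and 3 rose and 3 fell without siOGT2 replicate 2. PSMA4 and PSMB2 fell with each siRNA, against 5.11% of all tested genes, and no member rose with each, against 7.25%.

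**Figure D3:**
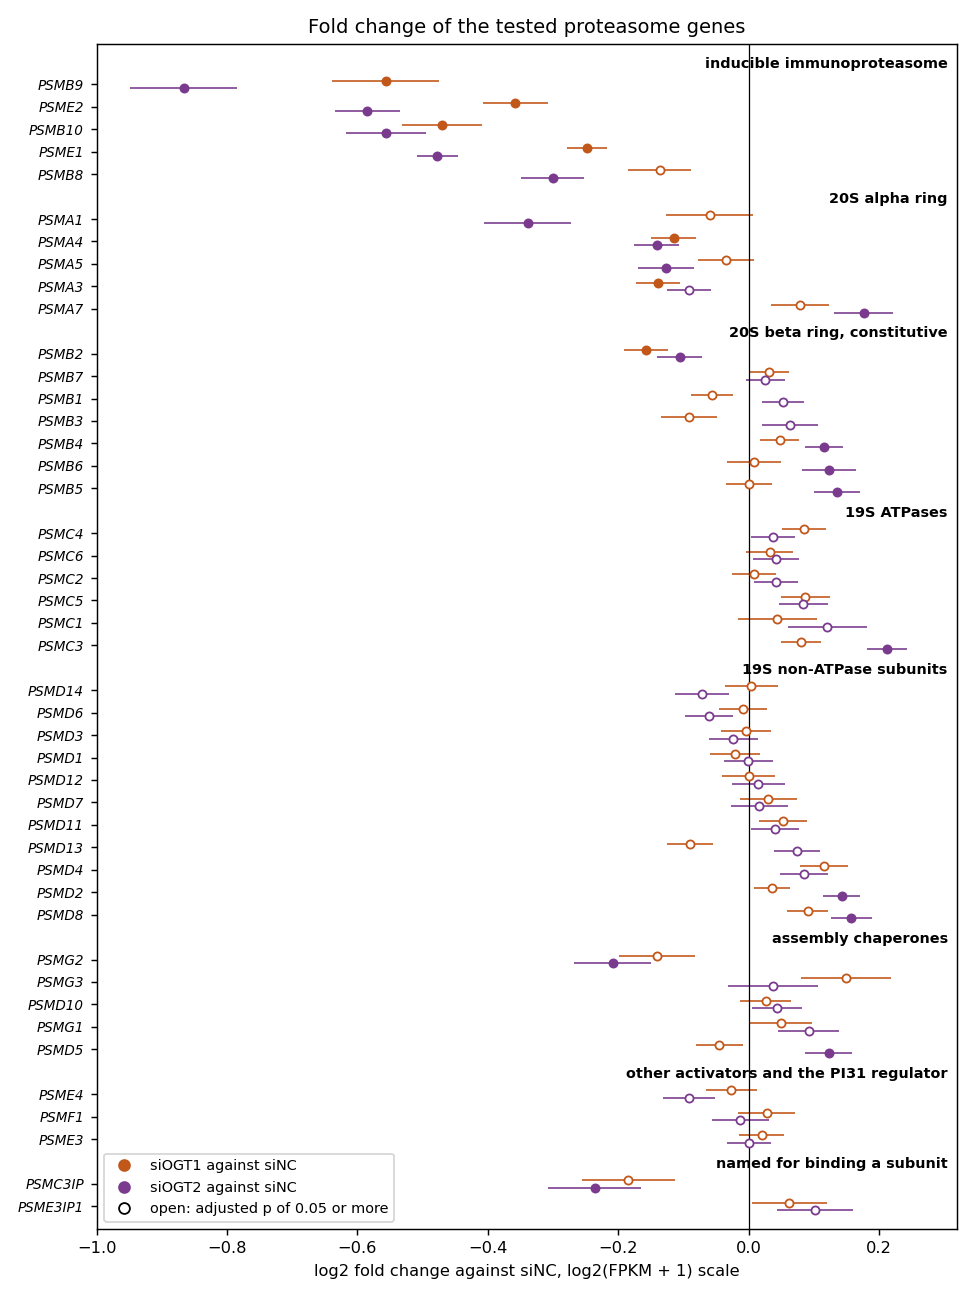
Log2 difference against siNC (horizontal axis, log2(FPKM + 1) scale) of the 44 tested proteasome genes, grouped by role, with siOGT1 above siOGT2 for each gene. Points are limma estimates, lines are ± 1 SE, and filled points have an adjusted p under 0.05. The inducible genes lie between -0.87 and -0.14 and the others between -0.34 and 0.21.

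In the alpha ring, 5 of 7 genes were tested, and 2 fell with siOGT1, while 3 fell and 1 rose with siOGT2. Of all tested genes, 8.1% fell with siOGT1, and 13.4% fell and 22.1% rose with siOGT2. PSMA3 had 41.7 and 41.6 FPKM with siOGT1, 42.2 and 43.9 FPKM with siOGT2, and 46.6 and 45.3 FPKM with siNC. All knockdown libraries were lower, and the difference passed the test with siOGT1 (-0.14, limma adjusted p = 0.0199) but not with siOGT2 (-0.09, limma adjusted p = 0.058). PSMA4 had 22.3 and 22.8 FPKM with siOGT1, 21.8 and 22.4 FPKM with siOGT2, and 24.6 and 24.3 FPKM with siNC, a fall of 0.11 with siOGT1 and 0.14 with siOGT2 on the log2 scale. PSMA7, whose group ranges overlapped for siOGT1, rose with siOGT2 at 63.6 and 67.7 FPKM, against 56.6 and 59.3 FPKM with siNC (log2 difference 0.18, limma adjusted p = 0.015). PSMA5 fell with siOGT2 at 16.7 and 16.1 FPKM, against 18.7 and 17.4 FPKM with siNC (-0.13, limma adjusted p = 0.0444).

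PSMA1, the alpha subunit with the largest difference, was counted at a low level. It had 2.24 and 2.05 FPKM with siOGT1, 1.68 and 1.51 FPKM with siOGT2, and 2.29 and 2.27 FPKM with siNC, on 77 to 141 reads per library. Only the siOGT2 libraries were well below siNC, by 0.34 on the log2 scale (limma adjusted p = 0.00458). The siOGT1 difference of -0.06 did not pass the test.

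In the constitutive beta ring, all 7 genes were tested, and PSMB2 fell with siOGT1, while PSMB4, PSMB5 and PSMB6 rose and PSMB2 fell with siOGT2. Among all tested genes, 8.1% fell with siOGT1, and 22.1% rose and 13.4% fell with siOGT2. PSMB2, a structural subunit without a proteolytic site, had 29.99 and 30.82 FPKM with siOGT1, 31.2 and 32.0 FPKM with siOGT2, and 33.6 and 34.5 FPKM with siNC. Every knockdown library was below siNC, with log2 differences of -0.16 for siOGT1 (limma adjusted p = 0.0124) and -0.11 for siOGT2 (limma adjusted p = 0.0369). PSMB4, also structural, rose with siOGT2 at 62.1 and 63.2 FPKM, against 57.4 and 58.1 FPKM with siNC (0.12, limma adjusted p = 0.0144).

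In the 19S cap, the only differences from siNC that passed limma's test were higher levels with siOGT2. None of the 6 ATPases and none of the 11 non-ATPase subunits passed limma's test with siOGT1, where 6 of the 17 had an unadjusted p under 0.05. With that siRNA, 9.51% of all tested genes rose and 8.1% fell. With siOGT2, PSMC3, PSMD2 and PSMD8 rose and none of the 17 fell, where 22.1% of all tested genes rose and 13.4% fell. PSMC3, a subunit of the ATPase ring, had 65.0 and 65.4 FPKM with siOGT1, 71.0 and 72.1 FPKM with siOGT2, and 62.7 and 60.5 FPKM with siNC. Its siOGT2 libraries were highest, with a log2 difference of 0.21 ± 0.031 (limma adjusted p = 0.00092). PSMD2, the scaffold on which ubiquitin shuttle proteins dock, had 138 and 138 FPKM with siOGT1, 147 and 150.3 FPKM with siOGT2, and 135 and 135 FPKM with siNC. Here too the siOGT2 libraries stood apart (0.14, limma adjusted p = 0.00428). PSMD8, a lid subunit, had 32.9 and 32.9 FPKM with siOGT2, against 29.74 and 29.05 FPKM with siNC (0.16, limma adjusted p = 0.00489). PSMD14, the deubiquitinase of the lid, gave 0.00 with siOGT1 and -0.07 with siOGT2, neither past the test.

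Of 7 assembly chaperones, 5 were tested, none passed limma's test with siOGT1 (1 unadjusted p under 0.05, that of PSMG2, which limma-voom called lower), and with siOGT2 PSMD5 rose and PSMG2 fell. The shares of all tested genes were 9.51% higher and 8.1% lower with siOGT1, and 22.1% higher and 13.4% lower with siOGT2. PSMG2, which helps assemble the alpha ring, had 3.13 and 3.31 FPKM with siOGT1, 3.02 and 3.03 FPKM with siOGT2, and 3.80 and 3.50 FPKM with siNC, with a fall of 0.21 on the log2 scale for siOGT2 (limma adjusted p = 0.0221). Its knockdown libraries were all below siNC. PSMD5, a chaperone of the ATPase base, had 32.1 and 30.3 FPKM with siOGT1, 35.4 and 34.9 FPKM with siOGT2, and 31.9 and 32.5 FPKM with siNC, a rise of 0.12 with siOGT2. None of PSME3, PSME4 and the inhibitor gene PSMF1 passed the test with either siRNA, where 1 unadjusted p, that of PSME4 with siOGT2, was under 0.05 and limma-voom called PSME4 lower. Of the genes named for binding a subunit, PSMC3IP, a recombination cofactor and not a proteasome subunit, fell with siOGT2 (-0.24, limma adjusted p = 0.0294) on 60 to 94 reads per library, and PSME3IP1 did not pass the test with either siRNA.

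The siRNAs differed from each other in 12 members. Of the inducible genes, 4 of 5 were higher with siOGT1 than with siOGT2, where 8.35% of all tested genes were higher, with a median log2 difference of 0.23, against -0.01 for all tested genes. The values were 0.31 for PSMB9 (limma adjusted p = 0.031), 0.23 for PSME1 (limma adjusted p = 0.00114), 0.23 for PSME2 (limma adjusted p = 0.0148) and 0.16 for PSMB8 (limma adjusted p = 0.0467), while PSMB10 gave 0.09 (limma adjusted p = 0.383). Among the other members PSMA1 was higher, and 7 were lower with siOGT1 (PSMB1, PSMB3, PSMB5, PSMC3, PSMD2, PSMD5 and PSMD13), where 8.24% of all tested genes were lower. PSMD13, a lid subunit, had 20.5 and 20.1 FPKM with siOGT1, 23.1 and 22.6 FPKM with siOGT2, and 22.0 and 21.3 FPKM with siNC, so that siNC lay between the siRNAs. PSMB3 had 42.6 and 41.7 FPKM with siOGT1, 49.1 and 45.1 FPKM with siOGT2, and 45.97 and 44.01 FPKM with siNC. Leaving out siOGT1 replicate 1 or siOGT2 replicate 2 left 1 of the 4 inducible calls, PSME1, and leaving out siOGT1 replicate 2 or siOGT2 replicate 1 left 2. Each of the 7 lower calls was lost when at least 1 of the siOGT1 or siOGT2 libraries was left out. The PSMA1 call was lost without siOGT1 replicate 1 or siOGT2 replicate 2.

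FPKM levels of subunits that form 1 particle ranged widely in siNC cells. Constitutive beta genes lay between 34.0 (PSMB2) and 149 FPKM (PSMB7), ATPases between 12.4 (PSMC1) and 61.6 FPKM (PSMC3), and non-ATPase subunits of the 19S cap between 12.3 (PSMD1) and 135 FPKM (PSMD2). The alpha ring ran between 0.489 (PSMA2) and 57.9 FPKM (PSMA7), although the ring is built with each of its 7 subunits. These levels depend on the gene length that FPKM divides by, which was longer for the lowest gene of each class named. The values imply 4528 bases for PSMB2 and 1788 for PSMB7, and 6129 for PSMC1 and 2276 for PSMC3. They imply 15795 for PSMD1 and 4960 for PSMD2, and 8378 for PSMA2 and 1752 for PSMA7. The part of length in these ranges was not tested. The thymus-specific PSMB11 and the testis-specific PSMA8 had at most 5 reads in any library. PSMB11 had 5 and 3 reads with siOGT1, 0 and 0 with siOGT2, and 1 and 0 with siNC.

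Several of the low members share exons with another gene. In the GENCODE 29 annotation, 5 of 46 members (without the tissue-restricted genes and those named for binding a subunit) had at least 50% of their coding bases inside exons of a different protein-coding gene on the same strand. These were PSMA2 (97.1%), PSMA1 (88.6%), PSMA6 (70.4%), PSMD9 (58.7%) and PSMB10 (58.3%). Their mean levels over the 6 libraries were 0.421 to 3.08 FPKM with a median of 0.567, against 0.818 to 151 FPKM with a median of 26.8 for the other 41. The overlapping genes, read-through or neighbouring models, were themselves listed at 0 to 0.279 FPKM, with at most 32 reads in a library. Overlap with genes of other types or on the other strand is left out of these percentages. Such overlap covers 47.7% of the coding bases of PSMC1 and 28.4% of those of PSMD7, and whether the counting used strand is not given. Many counting programs drop reads that fall in more than 1 gene, and the program used is not given, so the levels of these 5 genes are uncertain and no absence is read from them. The lengths that the FPKM values imply differ from the GENCODE 29 exon bases for some members. They were 12490 against 3356 bases for PSMG2 and 15795 against 5187 for PSMD1. Overlaps in the annotation used for counting may therefore differ, also for the other 41 genes. PSMA6 had 0.518 and 0.538 FPKM with siOGT1, 0.475 and 0.459 FPKM with siOGT2, and 0.747 and 0.665 FPKM with siNC, and as it was under the filter it was not tested.

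**Figure D4:**
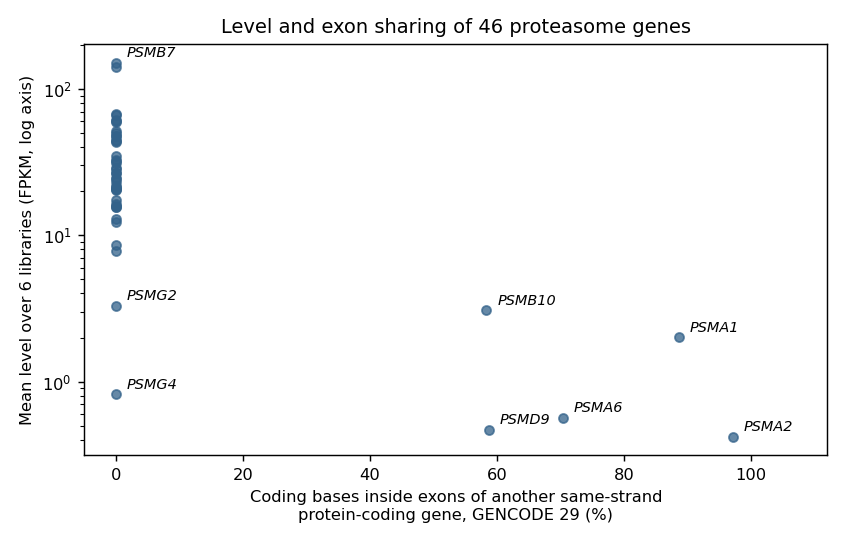
Mean level over 6 libraries (vertical log axis, FPKM) against the percentage of coding bases inside exons of another protein-coding gene on the same strand (horizontal axis, GENCODE 29) for 46 proteasome genes. The 5 genes at 58.3% or more lie at 3.08 FPKM or below, while PSMG4 is the only gene without such overlap under 1 FPKM.

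Of 17 partners without a PSM symbol, which assemble or feed the proteasome, 3 rose and 3 fell with siOGT1, where 9.51% of all tested genes rose and 8.1% fell. With siOGT2, 4 rose and 2 fell, near the 22.1% and 13.4% of all tested genes. The shuttle genes UBQLN1 and UBQLN2, which bring ubiquitinated proteins to the cap, fell mainly with siOGT1. UBQLN1 had 56.4 and 58.8 FPKM with siOGT1, 76.8 and 76.7 FPKM with siOGT2, and 82.1 and 82.1 FPKM with siNC, with log2 differences of -0.50 (limma adjusted p = 1.05e-05) and -0.10 (limma adjusted p = 0.0377). UBQLN2 had 10.9 and 11.5 FPKM with siOGT1, 16.7 and 17.2 FPKM with siOGT2, and 16.3 and 16.4 FPKM with siNC, with a fall of 0.51 with siOGT1 and no pass with siOGT2. The siRNAs differed from each other in UBQLN1 by -0.41 and in UBQLN2 by -0.56 (siOGT1 minus siOGT2), each past the test. RAD23B, another shuttle, rose by 0.15 with siOGT1 and 0.17 with siOGT2, and UBQLN4 rose with siOGT2 by 0.22. POMP, the chaperone that completes core assembly, had 27.1 and 27.9 FPKM with siOGT1, 31.4 and 32.5 FPKM with siOGT2, and 33.1 and 30.5 FPKM with siNC, a fall with siOGT1 (-0.20, limma adjusted p = 0.013) and not with siOGT2. The POMP call was lost without siNC replicate 1 or siOGT1 replicate 1, and the UBQLN1 call with siOGT2 without any 1 of the libraries compared.

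Of 11 genes of the NRF1 route, which raises constitutive proteasome genes when proteasome activity is short, none rose and 2 fell with siOGT1 in limma's test (6 unadjusted p-values under 0.05, and 4 higher by limma-voom), and 2 rose and 4 fell with siOGT2. Of all tested genes, 9.51% rose and 8.1% fell with siOGT1, and 22.1% rose and 13.4% fell with siOGT2. NFE2L1, the gene of NRF1 itself, had 22.6 and 22.3 FPKM with siOGT1, 22.9 and 24.8 FPKM with siOGT2, and 20.2 and 21.2 FPKM with siNC. All knockdown libraries were higher, and the difference passed with siOGT2 (0.19, limma adjusted p = 0.00926) but not with siOGT1 (0.11, limma adjusted p = 0.116). The related factor NFE2L3 fell by 0.52 with siOGT1 and 0.46 with siOGT2 on the log2 scale, and the small MAF partner MAFF fell by 0.36 with siOGT1 and 0.48 with siOGT2. MAFG fell with siOGT2 (-0.34), and SEL1L, of the endoplasmic reticulum pathway that turns over NRF1, rose with siOGT2 (0.22). The NFE2L1 call was lost without siNC replicate 1 or siOGT2 replicate 2, and the MAFF call with siOGT1 without either siNC library or siOGT1 replicate 1.

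Of the genes that supply and activate ubiquitin, RPS27A, ubiquitin fused to a ribosomal protein, had 65.3 and 72.0 FPKM with siOGT1, 72.5 and 77.3 FPKM with siOGT2, and 65.9 and 63.0 FPKM with siNC. It rose with siOGT2 by 0.21 on the log2 scale (limma adjusted p = 0.00982), and this call was lost without siNC replicate 2 or siOGT2 replicate 2. UBA6, an E1 enzyme gene, had 17.3 and 17.3 FPKM with siOGT1, 19.96 and 19.77 FPKM with siOGT2, and 21.4 and 21.0 FPKM with siNC. The siOGT1 libraries were lowest, with a fall of 0.28 on the log2 scale (limma adjusted p = 0.00053), and the siOGT2 difference of -0.09 did not pass the test (limma adjusted p = 0.0699).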

How the data were processed

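RNA was sequenced from 6 libraries of KGN cells, 2 per group, grouped by the siRNA named in the labels. The authors deposited FPKM values for 20036 Ensembl genes, 20011 of which matched a symbol. Per the submitters' processing notes, cutadapt 1.15, HISAT2 and the build GRCh38 were used. The counting program, the annotation used and the strandedness were not given in the sources used here. Dividing FPKM by steps of 1 read gave whole reads and a whole length (tolerances 0.01 reads and 0.03 bases) for 99.5% of genes above 0, with a median of 759 to 970 reads per tested gene. Counting error is therefore largest for low members.

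Genes averaging 1 FPKM or more over the libraries were fitted as log2(FPKM + 1), a pseudocount of 1, with limma 3.58.1 in R 4.3.3 (group means, intensity trend). Tests were two-sided with Benjamini-Hochberg adjustment over 10547 genes at 0.05. The script was tested on simulated data. Named genes were the inducible members, their counterparts, up to 6 other members each way per comparison with the smallest adjusted p, OGT, NFE2L1, POMP, IRF1, NLRC5, TAP1 and up to 4 genes of each further list. The members and lists were chosen with earlier results of these data known. Exon overlap was read from GENCODE 29 and promoters from RefSeq (44 of 50 members matched). Alternatives were other pseudocounts, filters, scalings and fits, voom on recovered reads, a replicate block and leaving out each library. Replicate numbers did not pair the samples. Some genes are not reported here.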

Additional observations from a re-analysis of the deposited data

Results flagged for a closer look

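The log2 difference against siNC was not the same for siOGT1 and siOGT2 in 12 members by limma's test of siOGT1 against siOGT2, which compares those effects directly. The differences between the effects (siOGT1 minus siOGT2) were 0.3102 for PSMB9 (limma adjusted p = 0.031), 0.279 for PSMA1 (limma adjusted p = 0.0208), 0.2295 for PSME1 (limma adjusted p = 0.00114), 0.2269 for PSME2 (limma adjusted p = 0.0148) and 0.164 for PSMB8 (limma adjusted p = 0.0467). For these genes both effects were negative, and that of siOGT2 was larger in size. Negative differences were -0.1678 for PSMD5 (limma adjusted p = 0.0128), -0.1637 for PSMD13 (limma adjusted p = 0.013), -0.1549 for PSMB3 (limma adjusted p = 0.0368), -0.1351 for PSMB5 (limma adjusted p = 0.029), -0.1326 for PSMC3 (limma adjusted p = 0.0177), -0.1095 for PSMB1 (limma adjusted p = 0.0446) and -0.1065 for PSMD2 (limma adjusted p = 0.0287). In these the siOGT2 libraries were all above the siOGT1 libraries.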

How the results depend on the processing

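With 2 libraries a group, depth and replication limit small differences, most for genes of about 100 reads such as PSMB10 and PSMA1. The falls of PSMB9, PSMB10, PSME1 and PSME2 with siOGT1, and of all 5 inducible genes with siOGT2, passed under every alternative that tested them. PSMB10 was not tested with a minimum of 5 FPKM, as its mean was 3.08 FPKM. PSMB8 with siOGT1 passed in 3 of 17. Scaling by a trimmed mean of log ratios shifted the median of all genes to 0.00 for siOGT1 and 0.01 for siOGT2. It turned 1003 higher and 854 lower calls with siOGT1 into 537 and 1021, and 2329 and 1411 with siOGT2 into 1420 and 1838. No called proteasome gene and no called gene of the pathway lists changed sign. The causes below were not tested.

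Other members higher with siOGT1 (0) became 1 with a minimum of 5 FPKM and 1 with voom, and 0 to 1 with a library left out. Other members lower with siOGT1 (3) became 1 without a filter and 1 without the intensity trend, and 0 to 2 with a library left out. With siOGT2, 8 higher became 5 without a filter, 4 with the trimmed mean and 4 without the trend (3 to 8 with a library left out), and 6 lower became 3 without a filter (1 to 5). For siOGT1 against siOGT2, 4 inducible genes higher became 1 without a filter and 2 without the trend (1 to 4). The 1 other member higher became 0 without a filter, 0 with a minimum of 5 FPKM and 0 with voom (0 to 1). The 7 other members lower became 3 without a filter, 4 with equal sums, 2 without the trend and 4 with the compared groups alone (0 to 4, with 0 when siOGT2 replicate 1 was left out). Inducible genes lower numbered 4 to 5 with siOGT1 and 5 with siOGT2 when a library was left out. The within-library differences then ran from -0.3467 to -0.2247 for PSMB8, -0.8678 to -0.6676 for PSMB9, -0.593 to -0.4902 for PSMB10, -0.4138 to -0.337 for PSME1 and -0.5712 to -0.3913 for PSME2. Leaving out a siNC library left these with no test.

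Same-numbered replicates did not deviate together (correlations of -0.02, -0.03 and 0.05 over genes), so the numbers were not taken to pair the samples. A fit with the replicate block gave 4 inducible genes lower with siOGT1 and 5 with siOGT2, 4 higher for siOGT1 against siOGT2, and among other members 0 higher and 2 lower with siOGT1, 7 higher and 6 lower with siOGT2, and 1 higher and 6 lower for siOGT1 against siOGT2.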
